A study of Mus musculus with 6 samples.

Results

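The BCL-2 family was examined in dendritic cells of mouse spleen sorted as CD8-negative, through 10 of its genes taken by their mouse Entrez identifiers from a count table of 27179 genes. They were the prosurvival genes Bcl2, Bcl2l1, Mcl1 and Bcl2a1b, the effector genes Bax and Bak1, and the BH3-only genes Bcl2l11, Bid, Bbc3 and Pmaip1. All 10 had enough counts to be tested. RNA-seq had been carried out on 6 libraries from C57BL/6 mice, 3 labelled CpG-pretreated and 3 untreated, each group with replicates numbered 2, 3 and 4. CpG DNA is sensed by Toll-like receptor 9. The series title places the cells after a systemic inflammatory syndrome and calls them paralysed. The cells of both groups were sorted and lysed without culture. The sources used here do not give which CpG was used, how much, by which route or how long before collection, nor the age of the mice or whether animals were pooled. The design text calls the libraries biological replicates without naming animals, so p-values measure the spread between libraries, which may be technical.

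BCL-2 family proteins decide whether the outer membrane of mitochondria stays intact. BAX and BAK form pores that release cytochrome c and start the caspase cascade, the prosurvival proteins BCL-2, BCL-XL (encoded by Bcl2l1), MCL-1 and A1 (encoded by the Bcl2a1 genes) hold them in check, and the BH3-only proteins BIM (Bcl2l11), BID, PUMA (Bbc3) and NOXA (Pmaip1) bind the prosurvival proteins or activate the effectors. Dendritic cells are short-lived, and the balance of BIM against BCL-2 and BCL-XL is known to bear on how long they persist after activation. Much of this control acts on the proteins, which were not measured here.

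Total counts lay between 7855500 and 8228140 per library. The 8 genes listed as core markers of conventional dendritic cells (among them Flt3, Zbtb46, Cd74, H2-Aa and H2-Ab1) summed to between 37461 and 48575 CPM (counts scaled to library size) in every library. The sum does not give the part of each gene, so by itself it does not establish the labelled cell type. Libraries numbered 2 stood apart in both groups by gene length: the deviation of a gene from its group mean on the log2 CPM scale had a Spearman correlation with gene length of -0.67 in untreated 2 and -0.55 in CpG-pretreated 2, against 0.23 to 0.53 in the other 4 libraries. Short genes were thus relatively high and long genes relatively low in both. Markers of other cells also differed between the groups. Summed erythroid markers (11 of the 13 listed genes were in the table, and Hba-a1 was at 0 in all libraries) lay at 22.5 to 91.8 CPM in untreated and 210 to 1019 CPM in CpG-pretreated libraries, and summed markers of red pulp macrophages (12 of 12 genes) at 559 to 694 and 373 to 504 CPM. Natural killer cell markers (6 of 6 genes) summed to 36.5 to 42.6 and 67.1 to 111 CPM. Platelet markers (5 of 5 genes, only 1 with enough counts to be tested) summed to 2.21 to 2.58 and 2.64 to 4.69 CPM, and 0 were called. With the block 1 B cell marker fell and 1 neutrophil marker rose, while the sums of both lists overlapped between the groups. Some markers of dendritic cell subsets were called, while their sums overlapped between the groups. Of 10 markers of the CD8-positive type (cDC1), 0 were called without the block and 4 rose with it. Their sums were 1804 to 2946 and 2131 to 2775 CPM. Of 8 markers of the CD8-negative type (cDC2), 1 fell without the block and 3 with it. Their sums were 2933 to 3314 and 2501 to 3262 CPM. Over all genes tested, 0.974% were called without the block and 8.52% with it. In bulk RNA of this kind, fewer cells of a type and less RNA per cell cannot be told apart.

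Of the Bcl2a1 genes, Bcl2a1a, Bcl2a1b and Bcl2a1d are near-identical copies on mouse chromosome 9, which bears on how the Bcl2a1b count can be read. The shorter copy Bcl2a1c is less alike: 10.4% of its 50-base stretches and 0% of its 100-base stretches occur unchanged in another copy. The first 60 bases of the coding sequence, the stretch of that length where the 3 full-length copies differ most, are shown from the GENCODE M21 transcripts (GRCm38, 5′ to 3′, sense strand), with the 6 positions that differ among the copies in capitals.
Bcl2a1a: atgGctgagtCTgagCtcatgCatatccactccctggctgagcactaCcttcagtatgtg
Bcl2a1b: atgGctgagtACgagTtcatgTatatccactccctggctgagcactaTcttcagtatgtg
Bcl2a1d: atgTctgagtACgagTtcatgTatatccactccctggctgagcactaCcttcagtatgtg
Over the whole coding sequence of 519 bases these 3 copies differ at 12 positions. Bcl2a1b is 97.9% identical to Bcl2a1a and 98.8% identical to Bcl2a1d. Of the 100-base stretches of the Bcl2a1b transcript, 31.1% occur unchanged in another copy, and of the 50-base stretches 57.6%. The sources used here do not say how reads matching several copies were counted, so the division of counts among the copies is uncertain.

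None of the 10 genes passed the test across all genes without the replicate number in the model (edgeR quasi-likelihood test, Benjamini-Hochberg adjusted p under 0.05), where 0.974% of the 11602 genes tested were called, 0.474% as higher and 0.5% as lower. At an unadjusted p under 0.05 there were 3, Bcl2l1, Bcl2l11 and Bbc3, against 12.8% of all genes. With the replicate number as a block, Bcl2l1 and Bcl2l11 rose and none fell, 2 of 10 where 8.52% of all genes were called, 4.73% as higher and 3.78% as lower. At an unadjusted p under 0.05 in that fit there were 6 of 10, against 21.6% of all genes. DESeq2 called 1 of the 10, Bcl2l1, where 3.69% of all genes were called, 2.24% as higher and 1.45% as lower. The libraries of the groups did not overlap in 4 of the 10, Bcl2l1 and Bcl2l11 upward and Mcl1 and Bbc3 downward, against 18.7% of all genes tested (9.2% upward and 9.47% downward). The median log2 fold change of the 10, CpG-pretreated over untreated, was -0.05, and that of all genes tested was -0.01.

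**Figure D1:**
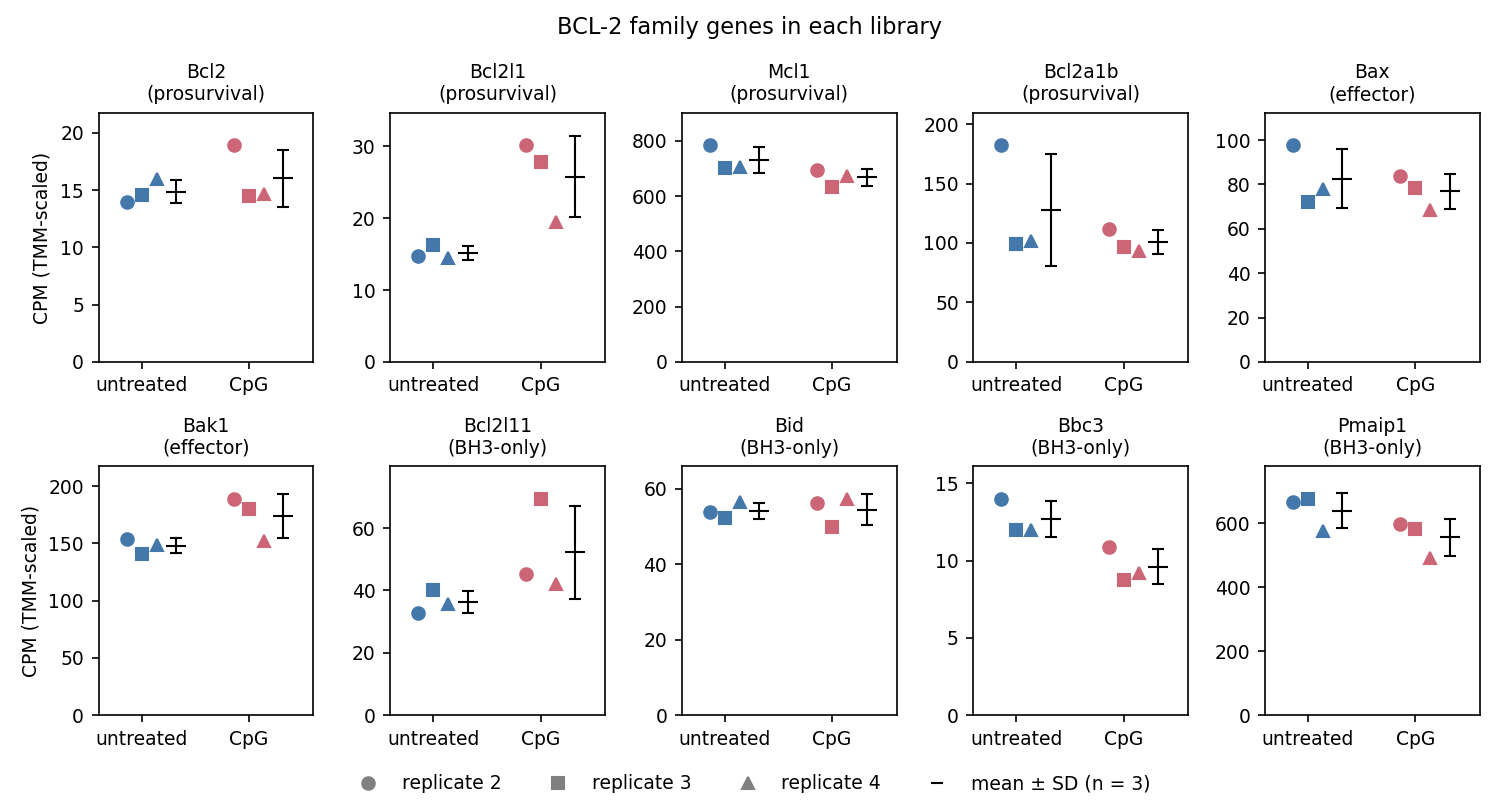
Level of each of the 10 genes in CPM (linear axes from 0), with 1 symbol per library, shaped by replicate number, and the mean ± SD of the 3 libraries per group in black. Bcl2l1 and Bcl2l11 lie higher in all CpG-pretreated libraries than in any untreated one, Bbc3 and Mcl1 lie lower, and untreated replicate 2 stands above the other libraries for Bcl2a1b.

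Among the prosurvival genes Bcl2l1 showed the largest difference. Bcl2l1 (Entrez 12048, GRCm38 chromosome 2, 152758732 to 152833803) encodes BCL-XL, a mitochondrial guardian on which erythroid precursors, platelets and activated lymphocytes depend. It was at 14.7, 16.3 and 14.4 CPM without CpG (replicates 2, 3 and 4) and 30.1, 27.8 and 19.4 CPM after it. Values are listed in that replicate order throughout. All CpG-pretreated libraries lay above all untreated ones, and replicate 4 was the lowest of the CpG-pretreated group. Means were 15.1 ± 0.992 and 25.7 ± 5.61 CPM (SD, n = 3 in each), and the fitted log2 fold change was 0.77 (SE 0.18, 95% interval 0.36 to 1.17, edgeR adjusted p = 0.0883). With the block it was 0.75 (SE 0.13, edgeR adjusted p = 0.00286), and the log2 ratios within the numbered pairs were 1.03, 0.77 and 0.43. Bcl2l1 was called by DESeq2 (adjusted p = 0.0115) and without CpG-pretreated replicate 4 (edgeR adjusted p = 0.0148), whereas limma-voom gave an adjusted p of 0.127. It was not called when any other single library was left out of the unblocked fit (edgeR adjusted p of 0.123 to 0.286).

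Erythroid markers moved with Bcl2l1. Their sum was 22.5, 91.8 and 24.6 CPM without CpG and 1019, 963 and 210 CPM after it, so that the CpG-pretreated library with the lowest erythroid sum, replicate 4, also had the lowest Bcl2l1. Of the 7 erythroid markers tested, 3 rose without the block and 4 with it, where 0.474% and 4.73% of all genes rose. Natural killer cell markers also moved this way, with sums of 37.1, 42.6 and 36.5 CPM without CpG and 107, 111 and 67.1 CPM after it. Red pulp macrophage markers went the other way, at 559, 694 and 692 and at 373, 428 and 504 CPM. Of these 12 markers, 4 fell without the block and 9 with it, where 0.5% and 3.78% of all genes fell. Of the 6 natural killer cell markers, 1 was tested, and it rose with and without the block. The parts of erythroid, natural killer cell, platelet and macrophage RNA in the Bcl2l1 difference were not tested. Over the 6 libraries, the genes outside the family whose log2 CPM followed Bcl2l1 most closely, among 7646 compared, were Bpgm, a red blood cell enzyme (Pearson r = 0.996), Car2, a carbonic anhydrase gene (0.995), and Uhrf1, which encodes a partner of the maintenance DNA methyltransferase (0.994). These correlations describe 6 libraries that fall into the groups compared, and carry no test.

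**Figure D2:**
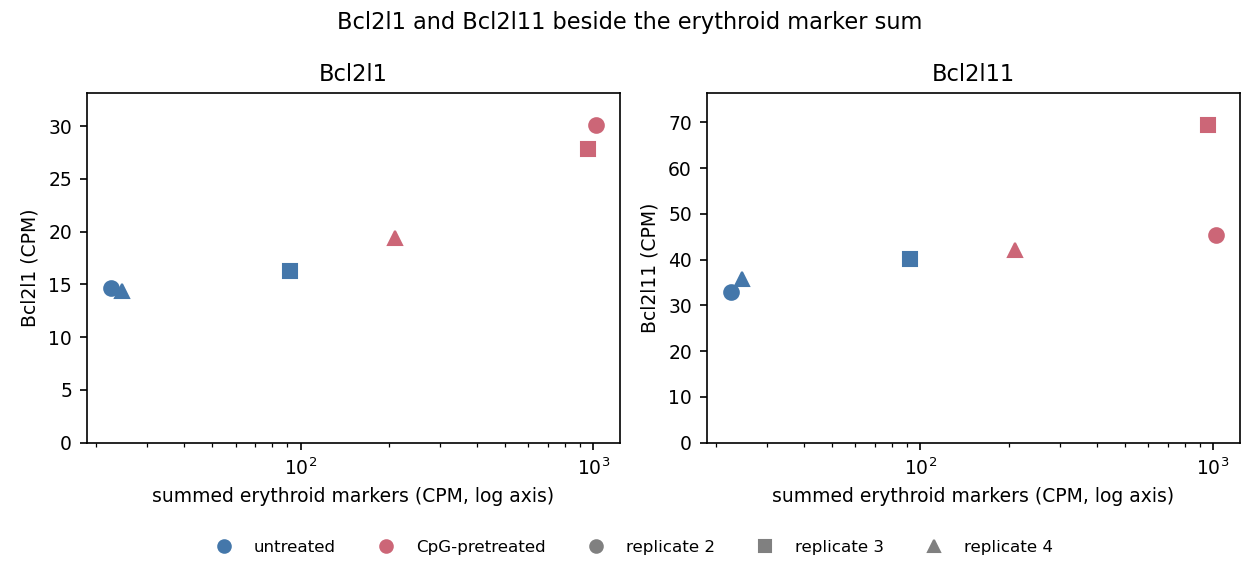
Level of Bcl2l1 (left) and Bcl2l11 (right) in CPM against the summed CPM of the erythroid markers on a log axis, 1 symbol per library. Bcl2l1 reads 14.4 to 16.3 CPM in the untreated libraries, where the erythroid sum is 22.5 to 91.8 CPM, and 19.4 to 30.1 CPM in the CpG-pretreated ones, where it is 210 to 1019 CPM, and the highest Bcl2l11 value is that of CpG-pretreated replicate 3.

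Mcl1 (Entrez 17210, chromosome 3, 95656944 to 95663179) encodes MCL-1, a short-lived guardian needed by many blood cell types. It had 783, 700 and 705 CPM without CpG and 696, 633 and 674 CPM after it. The highest CpG-pretreated library was just below the lowest untreated one. Its log2 fold change was -0.13 (SE 0.09, edgeR adjusted p = 0.689), with a 95% interval of -0.34 to 0.09. Counts of 4995 to 6371 per library stood behind these values.

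Bcl2a1b (Entrez 12045, chromosome 9, 89199273 to 89207838) encodes a copy of A1, a guardian induced by NF-kappaB in myeloid cells and lymphocytes. It was at 182, 98.8 and 102 CPM without CpG and 112, 96.8 and 93.1 CPM after it. Untreated replicate 2 stood far above the other 5 libraries, which lay between 93.1 and 112 CPM, and the groups overlapped. The log2 fold change was -0.34 (SE 0.23, 95% interval -0.86 to 0.18, edgeR adjusted p = 0.641), and without untreated replicate 2 it was 0.02 (adjusted p = 0.964). The other copies repeated that library's height: Bcl2a1a was at 39.1, 21.9 and 25.2 CPM and Bcl2a1d at 44.7, 21.9 and 23.6 CPM in untreated libraries 2, 3 and 4. Bcl2a1b is short (764 bases), and untreated replicate 2 is the library with the strongest trend with gene length. The part of that trend in the Bcl2a1b values was not tested. With the counts of all 4 copies summed to 1 gene the log2 fold change was -0.32 (SE 0.23, edgeR adjusted p = 0.669).

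Bcl2 (Entrez 12043, chromosome 1, 106538176 to 106714290), the founding prosurvival gene of the family, was at 14.0, 14.6 and 16.0 CPM without CpG and 18.9, 14.5 and 14.7 CPM after it. CpG-pretreated replicate 2 was the highest and the other 5 libraries lay close together. The log2 fold change was 0.11 (SE 0.15, 95% interval -0.24 to 0.46, edgeR adjusted p = 0.877). Per kilobase of gene, the ratio of Bcl2l1 to Bcl2 was 3.44, 3.63 and 2.94 in untreated and 5.20, 6.28 and 4.30 in CpG-pretreated libraries, with no overlap between the groups. This ratio is 1 of 7 computed between genes or role sums, and they carry no test.

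Of the effectors, Bak1 (Entrez 12018, chromosome 17, 27019812 to 27028627), which encodes the pore-former that sits in the mitochondrial membrane of resting cells, was at 154, 141 and 149 CPM without CpG and 189, 180 and 152 CPM after it. CpG-pretreated replicate 4 lay within the untreated range and the other 2 lay above it. The log2 fold change was 0.23 (SE 0.11, 95% interval -0.02 to 0.48, edgeR adjusted p = 0.442, and 0.122 with the block). Bax (Entrez 12028, chromosome 7, 45461695 to 45466903), whose protein moves to mitochondria on a death signal, was at 97.6, 72.3 and 77.8 CPM without CpG and 83.8, 78.4 and 68.5 CPM after it. Replicate 2 was the highest of its group in both, and Bax is short (869 bases). Its log2 fold change was -0.10 (SE 0.14, 95% interval -0.42 to 0.21, edgeR adjusted p = 0.868), and 0.05 without untreated replicate 2. Per kilobase, the ratio of Bak1 to Bax was 0.684, 0.846 and 0.830 in untreated and 0.979, 0.995 and 0.961 in CpG-pretreated libraries. The 2 ranges did not overlap, and the lowest ratio belonged to untreated replicate 2, the library high in short genes.

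Among the BH3-only genes, Bcl2l11 (Entrez 12125, chromosome 2, 128126038 to 128162547) encodes BIM, which binds every prosurvival protein of the family. It was at 32.9, 40.1 and 35.8 CPM without CpG and 45.3, 69.4 and 42.1 CPM after it. The groups did not overlap, and CpG-pretreated replicate 3 stood well above all others. Means were 36.3 ± 3.63 and 52.2 ± 14.9 CPM (SD, n = 3 in each), and the fitted log2 fold change was 0.53 (SE 0.19, 95% interval 0.09 to 0.97, edgeR adjusted p = 0.284). With the block it was 0.50 (SE 0.11, edgeR adjusted p = 0.0110), with log2 ratios of 0.46, 0.79 and 0.23 in pairs 2, 3 and 4. Without CpG-pretreated replicate 3 the unblocked log2 fold change was 0.28 (SE 0.13, edgeR adjusted p = 0.606). The call with the block was lost when both libraries numbered 2 (adjusted p = 0.0738) or both numbered 3 (0.153) were left out of the blocked fit, while Bcl2l1 passed in each of those fits (0.0301 and 0.0321). The genes closest to Bcl2l11 over the 6 libraries were Stat2, a mediator of interferon signalling (Pearson r = 0.993), Mapk9, which encodes the kinase JNK2 (0.989), and Ly75, which encodes the endocytic receptor DEC-205, found on cDC1 cells (0.987). Each was highest in CpG-pretreated replicate 3, where Stat2 was at 445, Mapk9 at 171 and Ly75 at 65.6 CPM. The erythroid sums given above differ between the groups beside Bcl2l11 too, and some cDC1 and cDC2 markers were called though their sums overlapped. The part of these cells in the Bcl2l11 difference was not tested.

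Bbc3 (Entrez 170770, chromosome 7, 16308398 to 16318334), which encodes PUMA, a p53 target, was at 14.0, 12.0 and 12.0 CPM without CpG and 10.9, 8.75 and 9.19 CPM after it. All CpG-pretreated libraries were below all untreated ones, with 69 to 114 counts per library. The log2 fold change was -0.40 (SE 0.16, 95% interval -0.76 to -0.04, edgeR adjusted p = 0.333, and 0.128 with the block). The log2 ratios within pairs 2, 3 and 4 were -0.36, -0.46 and -0.39. Per kilobase, the ratio of Bcl2l11 to Bbc3 was 0.922, 1.31 and 1.16 in untreated and 1.63, 3.11 and 1.79 in CpG-pretreated libraries. The groups could not overlap in this ratio, because Bcl2l11 was higher and Bbc3 lower in every CpG-pretreated library than in any untreated one. The genes closest to Bbc3 were Ptov1 (Pearson r = 0.992), Ergic1 (0.988) and Acads (0.983), the last an enzyme of fatty acid oxidation.

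Pmaip1 (Entrez 58801) encodes NOXA, which binds MCL-1 and A1 and leads to the breakdown of MCL-1. It was at 665, 676 and 575 CPM without CpG and 597, 580 and 490 CPM after it. The groups overlapped, and replicate 4 was the lowest of both. The log2 fold change was -0.20 (SE 0.11, 95% interval -0.46 to 0.06, edgeR adjusted p = 0.547, and 0.105 with the block). Bid (Entrez 12122, chromosome 6, 120893119 to 120917062) links death receptors to mitochondria once caspase-8 has cut its protein. It lay between 52.1 and 56.3 CPM in untreated and between 49.8 and 57.3 CPM in CpG-pretreated libraries (log2 fold change 0.01, SE 0.10, 95% interval -0.22 to 0.24, edgeR adjusted p = 0.986).

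**Figure D3:**
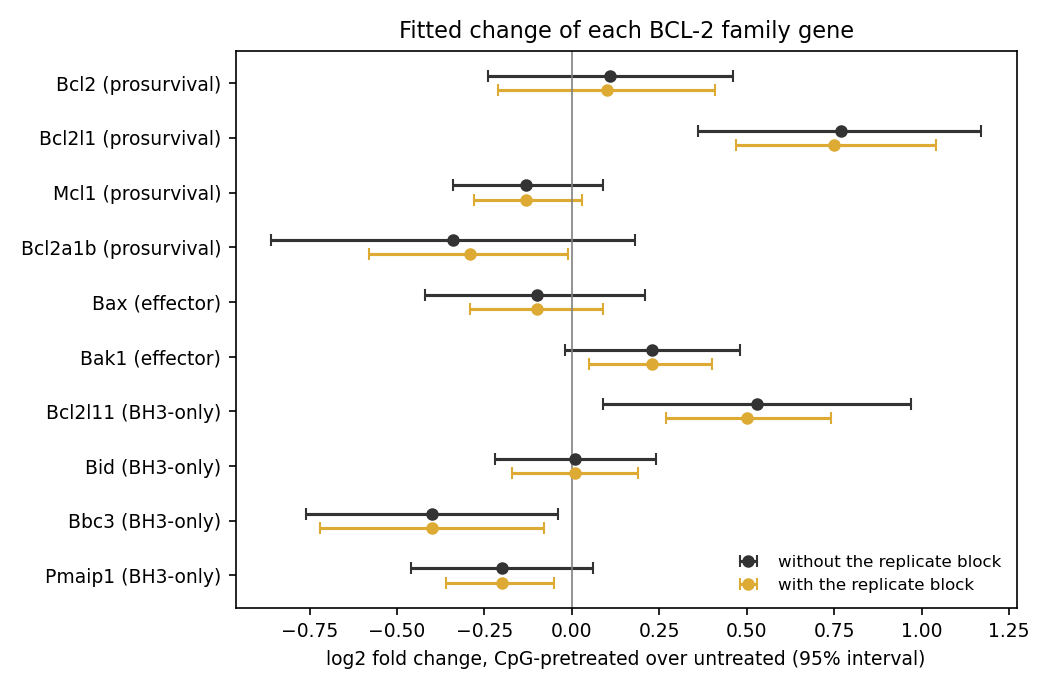
Fitted log2 fold change (CpG-pretreated over untreated) of each gene with its 95% interval, without the replicate block in black and with it in yellow. Both intervals of Bcl2l1 (0.36 to 1.17 and 0.47 to 1.04) and of Bcl2l11 (0.09 to 0.97 and 0.27 to 0.74) lie above 0, and both intervals of Bbc3 lie below 0.

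The promoters of Bcl2l1 and Bcl2l11, the genes called with the block, are shown from RefSeq on GRCm38.p6, each window running from 250 bases before to 50 after an annotated start, 5′ to 3′ in the direction of transcription. Both strands were searched for 5 motifs: those of GATA factors (AGATAA), FOXO factors (TGTTTAC), STAT dimers (GAS, TTCNNNGAA), interferon response (ISRE, GAAA followed after 2 free bases by a second copy of itself) and NF-kappaB (kB, GGG followed after 3 free bases by TTCC). Matches are in capitals. Which start the dendritic cells used cannot be read from counts per gene. Bcl2l1 has 3 windows on the minus strand, at chr2:152828440-152828739, chr2:152830668-152830967 and chr2:152831679-152831978.
Bcl2l1 window 1: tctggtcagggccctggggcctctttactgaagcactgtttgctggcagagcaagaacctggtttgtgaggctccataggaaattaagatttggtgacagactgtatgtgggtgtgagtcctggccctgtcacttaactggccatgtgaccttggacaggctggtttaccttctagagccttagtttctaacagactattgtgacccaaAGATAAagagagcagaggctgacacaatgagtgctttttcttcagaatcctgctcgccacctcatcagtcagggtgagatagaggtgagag
Bcl2l1 window 2: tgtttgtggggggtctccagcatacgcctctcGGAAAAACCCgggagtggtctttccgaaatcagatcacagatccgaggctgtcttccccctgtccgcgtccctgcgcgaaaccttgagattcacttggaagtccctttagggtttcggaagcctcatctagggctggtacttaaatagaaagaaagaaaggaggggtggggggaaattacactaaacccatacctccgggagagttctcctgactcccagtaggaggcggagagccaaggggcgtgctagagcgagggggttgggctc
Bcl2l1 window 3: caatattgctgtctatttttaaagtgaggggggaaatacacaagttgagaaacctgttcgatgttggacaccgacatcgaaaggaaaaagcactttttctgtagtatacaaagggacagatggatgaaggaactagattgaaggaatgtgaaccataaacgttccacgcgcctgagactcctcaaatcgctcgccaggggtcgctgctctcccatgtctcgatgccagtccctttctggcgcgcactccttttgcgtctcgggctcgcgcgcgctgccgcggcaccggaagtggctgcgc
Bcl2l11 has 2 windows on the plus strand, at chr2:128125788-128126087 and chr2:128127325-128127624.
Bcl2l11 window 1: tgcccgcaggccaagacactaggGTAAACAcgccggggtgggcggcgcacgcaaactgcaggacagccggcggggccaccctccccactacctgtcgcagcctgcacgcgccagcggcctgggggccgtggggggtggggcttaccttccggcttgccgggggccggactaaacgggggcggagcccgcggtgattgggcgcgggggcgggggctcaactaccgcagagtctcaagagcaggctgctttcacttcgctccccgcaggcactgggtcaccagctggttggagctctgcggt
Bcl2l11 window 2: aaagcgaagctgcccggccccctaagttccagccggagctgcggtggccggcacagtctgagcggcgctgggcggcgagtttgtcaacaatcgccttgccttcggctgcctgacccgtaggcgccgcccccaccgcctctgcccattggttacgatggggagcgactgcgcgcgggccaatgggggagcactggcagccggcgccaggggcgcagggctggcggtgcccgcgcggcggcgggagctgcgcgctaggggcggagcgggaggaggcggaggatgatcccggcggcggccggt
Window 1 of Bcl2l1 holds a GATA match and window 2 a kB match on the opposite strand, motifs found in 11.2% and 5.56% of the 32851 promoter windows of the same length. Window 1 of Bcl2l11 holds a FOXO match on the opposite strand, found in 3.65% of windows. No ISRE or GAS match (3.44% and 8.30% of windows) lies in any of the 14 windows of the 9 genes with one. Elsewhere among the 10, Mcl1 and Bbc3 hold a kB match and Bbc3 a FOXO match. No 2 matches overlapped. These matches describe letters only.

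Levels of different genes were set side by side as CPM per kilobase, with the gene lengths of the deposited table. In untreated cells the order was Pmaip1 (241 ± 20.8), Mcl1 (209 ± 13.3), Bcl2a1b (167 ± 61.5), Bax (95 ± 15.3), Bak1 (73.8 ± 3.29), Bid (28.6 ± 1.11), Bcl2l11 (7.20 ± 0.720), Bbc3 (6.42 ± 0.580), Bcl2l1 (6.38 ± 0.418) and Bcl2 (1.92 ± 0.130 CPM per kilobase, SD, n = 3). The libraries of Pmaip1, Mcl1 and Bcl2a1b overlapped one another, as did those of Bcl2l11, Bbc3 and Bcl2l1, while Bax, Bak1, Bid and Bcl2 each kept a range of their own. Both genes called with the block were among the 4 lowest. In CpG-pretreated cells Bcl2l1 (10.9 ± 2.37) and Bcl2l11 (10.4 ± 2.96) still overlapped each other and lay above Bbc3 (4.87 ± 0.579 CPM per kilobase) in every library. Bax (88.5 ± 8.90) and Bak1 (86.6 ± 9.71), apart in untreated cells, overlapped there.

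The 10 genes were summed by role, without other family genes such as the BH3-only gene Bmf. Also left out were Bcl2a1a (36.1 ± 11.5) and Bcl2a1d (37.8 ± 16 CPM per kilobase untreated, SD, n = 3), both above Bcl2l1 and Bcl2. The sums, shares and ratios therefore describe the 10 genes and not the balance of the whole family. Prosurvival genes were at 470, 339 and 344 CPM per kilobase in untreated and 361, 322 and 325 in CpG-pretreated libraries 2, 3 and 4. Mcl1 and Bcl2a1b made up 95.8% to 98.3% of that sum, so Bcl2l1 and Bcl2 weighed little in it. The effectors summed to 189, 153 and 164 in untreated and 191, 180 and 155 in CpG-pretreated libraries. The BH3-only genes, mostly Pmaip1, summed to 293, 296 and 260 and to 269, 263 and 228 CPM per kilobase. As shares of all 10, prosurvival genes held 45.7% ± 3.32 and 44.0% ± 1.92, effectors 20.2% ± 0.993 and 22.9% ± 0.900, and BH3-only genes 34.1% ± 3.43 and 33.1% ± 1.13 of the summed level in untreated and CpG-pretreated libraries (SD, n = 3). The effector share was 19.5% to 21.3% in untreated and 21.8% to 23.5% in CpG-pretreated libraries, without overlap, and the other shares overlapped. The ratio of prosurvival to BH3-only sums was 1.61, 1.14 and 1.32 in untreated and 1.34, 1.22 and 1.43 in CpG-pretreated libraries, overlapping throughout. The ratio of effector to BH3-only sums was 0.518 to 0.646 and 0.678 to 0.709, without overlap. The remaining ratios overlapped between the groups: Mcl1 to Pmaip1 was 0.788 to 0.933 and 0.832 to 1.05, and Bcl2l1 to Bcl2l11 was 0.854 to 0.951 and 0.851 to 1.41.

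**Figure D4:**
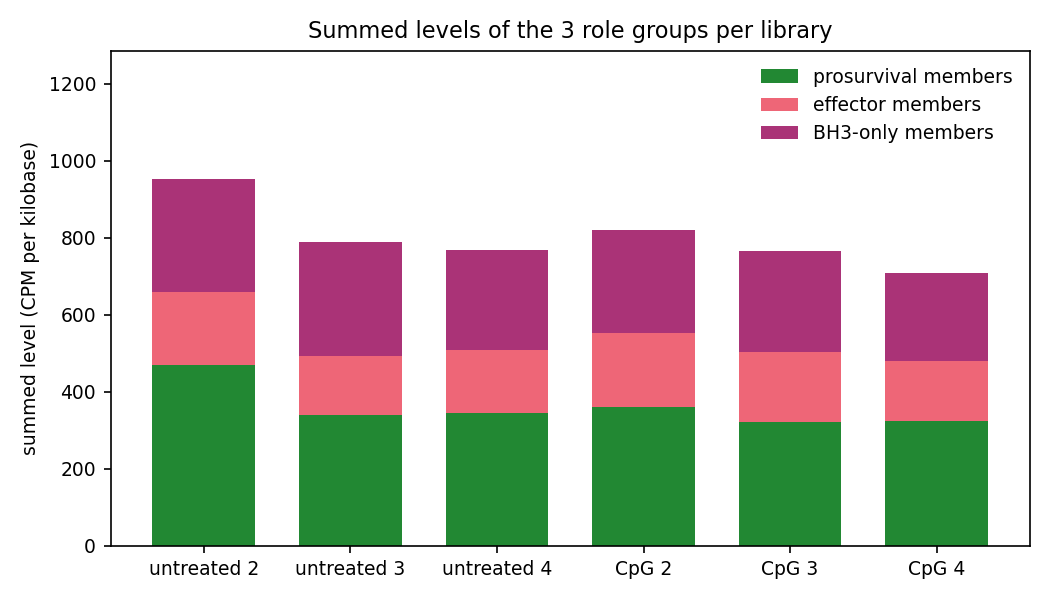
Summed level in CPM per kilobase of the prosurvival, effector and BH3-only genes among the 10, stacked from 0, 1 bar per library. Untreated replicate 2 has the tallest prosurvival bar (470 CPM per kilobase) and the other 5 libraries lie between 322 and 361.

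The other family genes were low or not called. Of the other prosurvival genes, 4 of 5 were tested and 0 called with or without the block, with a median log2 fold change of -0.22. The most abundant was Bcl2a1a, described above, and the largest difference was that of Bcl2a1d (-0.40, edgeR adjusted p = 0.651). Bcl2l10 had 0 counts in all libraries. Of the effector-like genes 4 of 5 were tested and 0 called (median 0.11). Bcl2l13, a mitophagy receptor, was at 57.1, 67.5 and 69.7 CPM without CpG and 72.4, 77.7 and 75.1 CPM after it (0.21, edgeR adjusted p = 0.477), and Bcl2l15 had the largest difference (-0.35, adjusted p = 0.665). Bok, a further effector, had 1 count in total. Of the other BH3-only genes 5 of 7 were tested and 0 called (median 0.02). The largest difference was that of Bmf, a BIM relative held at the cytoskeleton, at 86.8, 119 and 125 CPM without CpG and 68.7, 82.4 and 119 CPM after it (-0.29, edgeR adjusted p = 0.686, and 0.0554 with the block). The most abundant was the autophagy gene Becn1 (-0.04, adjusted p = 0.934). Hrk had 0 counts and Bik at most 2 in any library.

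Downstream of mitochondria, the caspase list had the highest median of the 9 lists. Of the 6 apoptotic caspase genes, 0 were called without the block and 2 rose with it, of which Casp8 is described here. With the block, 4.73% of all genes rose. Above 0 lay 5 of 6 log2 fold changes (median 0.24), against 5671 of 11602 over all genes tested (median -0.01). Casp8, the initiator that cuts BID, was at 112, 106 and 102 CPM without CpG and 132, 138 and 121 CPM after it (log2 fold change 0.29, SE 0.10, edgeR adjusted p = 0.240, and 0.0322 with the block). Every CpG-pretreated library was above every untreated one. Casp8 was not called when both libraries numbered 2 or both numbered 3 were left out of the blocked fit.

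Among 9 genes of mitochondrial release and the apoptosome, 0 were called without the block and 1 rose with it (median 0.09), where 4.73% of all genes rose. The gene that rose was Apaf1, the scaffold of the apoptosome, at 110, 172 and 181 CPM without CpG and 176, 220 and 193 CPM after it (0.35, SE 0.18, edgeR adjusted p = 0.519, and 0.0426 with the block). The groups overlapped, with untreated replicate 2 lowest, and without that library the log2 fold change was 0.16 (edgeR adjusted p = 0.561). Apaf1 is long (6557 bases), and untreated replicate 2 is the library with the strongest trend with gene length. The part of that trend in the Apaf1 values was not tested. The call was lost without both libraries numbered 2 or both numbered 3. Of 5 inhibitor of apoptosis genes 1 rose with the block and 0 were called without it (median 0.04). That was Birc5, which encodes survivin, a protein of dividing cells, at 65.4, 34.3 and 38.1 and at 88.3, 55.7 and 47.5 CPM (0.48, SE 0.29, edgeR adjusted p = 0.597, and 0.00496 with the block). Here the groups overlapped widely, and each CpG-pretreated library was above the untreated one of its number. The Birc5 log2 fold change was 0.17 without CpG-pretreated replicate 2, 0.30 without untreated replicate 3 and 0.83 without untreated replicate 2. The call was lost without both libraries numbered 3.

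Of 11 death receptor and adaptor genes 10 were tested, 0 were called without the block and 1 fell with it (median 0.01), where 3.78% of all genes fell. Fasl, the ligand of the FAS death receptor, was at 7.50, 6.25 and 6.15 CPM without CpG and 2.82, 1.01 and 2.77 CPM after it. Its libraries did not overlap, and its log2 fold change was -1.58 (SE 0.33, edgeR adjusted p = 0.0710, and 0.00273 with the block). Only 8 to 61 counts per library stood behind these Fasl values. Of p53 and its targets 10 of 12 were tested, 0 were called without the block and 2 fell with it, where 3.78% of all genes fell. The median of the 10 was -0.12, with 2 of 10 above 0, against 5671 of 11602 over all genes tested. Sesn1 and Sesn2 encode sestrins, stress-induced brakes on mTORC1. Sesn1 was at 83.7, 77.5 and 79.8 CPM without CpG and 50.8, 53.9 and 73.9 CPM after it (-0.43, SE 0.15, edgeR adjusted p = 0.246, and 0.0246 with the block). Sesn2 was at 102, 121 and 128 and at 76.2, 101 and 99.1 CPM (-0.34, SE 0.14, edgeR adjusted p = 0.350, and 0.0138 with the block). Neither overlapped between the groups. Sesn1 was not called when both libraries numbered 2 or both numbered 3 were left out of the blocked fit, and Sesn2 when both numbered 2 were. Without the block, Sesn1 was called when CpG-pretreated replicate 4 was left out (-0.62, edgeR adjusted p = 0.0303), and Sesn2 was at -0.22 (adjusted p = 0.695) without CpG-pretreated replicate 2.

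Of 9 regulators of BH3-only and MCL-1 abundance 8 were tested and 0 were called with or without the block (median 0.03). The largest difference was that of Foxo1 (-0.20, edgeR adjusted p = 0.726), and the most abundant was Huwe1, a ubiquitin ligase of MCL-1, at 232, 500 and 529 CPM without CpG and 355, 537 and 530 CPM after it. Huwe1 is low in both libraries numbered 2. Over all 9 lists, 61 of 69 genes were tested, and with the block 4 rose and 3 fell, where 8.52% of all genes were called. The median log2 fold change of the 61 was 0.02. The part of the RNA of other cells and of dendritic cell subsets described above in these differences was not tested.

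**Figure D5:**
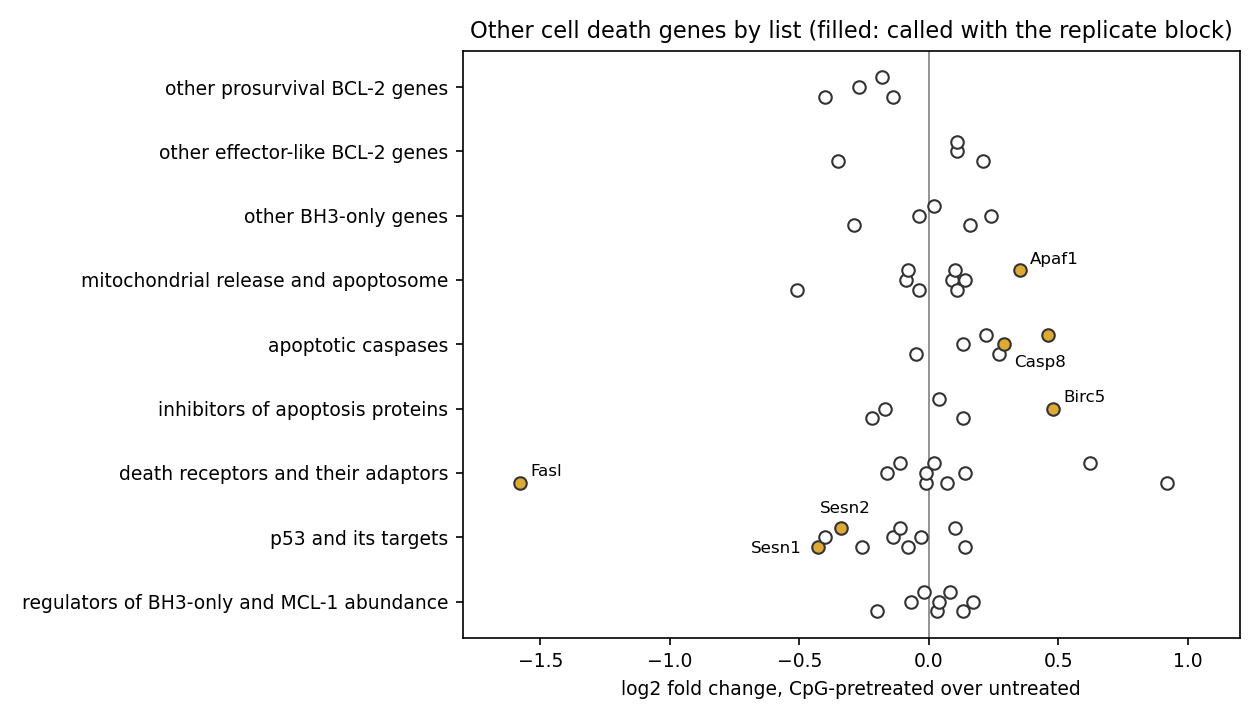
Log2 fold change (CpG-pretreated over untreated) of the 61 tested genes of 9 cell death lists, 1 circle per gene, filled where the fit with the replicate block called the gene, and named where the text describes it. Casp8, Apaf1 and Birc5 lie to the right of 0, and Fasl, Sesn1 and Sesn2 to the left.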

How the data were processed

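Poly(A) RNA was sequenced from 6 libraries, and the authors deposited whole-number read counts per Entrez gene with a gene length. The submitters' processing notes name CASAVA, featureCounts and the build mm10. The sources used here do not state versions, the aligner, the strand setting or how reads matching several genes were treated. The 6 per-sample tables equalled the series table. Symbols and positions came from RefSeq GRCm38.p6, the assembly that mm10 names (25275 of 27179 identifiers matched). Without a strand setting, reads of overlapping genes cannot be told apart: Acoxl overlaps Bcl2l11 (at most 0.368 CPM), Cox4i2 overlaps Bcl2l1 (0 CPM) and Ggnbp1 overlaps Bak1 (at most 5.53 CPM).

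The deposited counts were tested with edgeR 4.0.16 (R 4.3.3): filterByExpr (minimum count 10, minimum total 15) kept 11602 genes, followed by TMM scaling, robust dispersions and the quasi-likelihood F test, two-sided, with Benjamini-Hochberg adjustment over all genes tested and a threshold of 0.05. The fit without the replicate block was tested on simulated counts that held no replicate pairs and no trend with gene length. The fit with the block was not tested in this way. CPM use TMM-scaled library sizes, so that 1 count is 0.123 to 0.127 CPM. Standard errors and 95% intervals come from the F statistic and its degrees of freedom. Both groups carry replicate numbers 2, 3 and 4. Deviations from the group mean correlated between same-numbered libraries at 0.48, 0.25 and 0.31, each above 0.1. Between differently numbered libraries the correlations were -0.39 to 0.07. Deviations within a group sum to 0, so these values are not independent of the first. On the ground of the same-number correlations, from the data alone, same-numbered libraries were read as pairs. Both libraries numbered 2 share a trend with gene length, and its part in their correlation was not tested. The main fit did not use the number, and its values are those given wherever the block is not named. The fit with the number as a block is an alternative, given where it changes a call and for some other genes. Genes named are the 10, the list genes called with or without the block, otherwise the most changed and most abundant of a list, and the 3 genes closest to each of the 3 members with the smallest p, of genes averaging 4 or more in log2 CPM. Lists have no test of their own. Not every gene called is reported here by name. Alternatives were DESeq2 1.42.0, limma-voom (limma 3.58.1), other scalings and filters, and leaving out libraries. The 10 genes and the lists were chosen with earlier results of these data known.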

Additional observations from a re-analysis of the deposited data

How the results depend on the processing

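Over all genes, 113 were called, against 988 with the replicate block, 189 without a filter on low counts, 428 by DESeq2 and 41 by limma-voom. Leaving out 1 library gave 0 to 386: 0 without CpG-pretreated replicate 2 or 3 (1065 and 1107 genes at an unadjusted edgeR p under 0.05), 1 without untreated replicate 4, 2 without untreated replicate 3, 34 without untreated replicate 2 and 386 without CpG-pretreated replicate 4. The blocked fit without the pair numbered 2, 3 or 4, chosen after seeing the data, called 513, 482 and 1594 genes.

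Of the 10 family genes, 0 were called, 2 with the block, 1 by DESeq2, and 0 to 1 without 1 library (1 without CpG-pretreated replicate 4). The blocked fit called 1 gene without the pair numbered 2 or 3 and 4 without the pair numbered 4 (Bcl2l1, Bcl2l11 and Bak1 higher, Bcl2a1b lower). Among the lists, the block called 2 caspase genes, 2 p53 targets and 1 each of the apoptosome, inhibitor and death receptor lists. DESeq2 called 1 caspase and 1 death receptor gene, the latter also without a filter, and 1 p53 target was called without CpG-pretreated replicate 4 (0 to 1 without 1 library). Blocked fits without 1 pair called 1 to 2 caspase genes, 1 to 3 death receptor genes, 0 to 4 p53 targets and 0 to 1 genes of the other lists, with 0 in each for effector-like genes.

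Some log2 fold changes near 0 changed sign. Bcl2 (0.11) was -0.03 to 0.19 without 1 library, negative without CpG-pretreated replicate 2, and -0.07 in the blocked fit without the pair numbered 2. Bcl2a1b (-0.34) ranged from -0.50 to 0.02 and Bax (-0.10) from -0.19 to 0.05, both positive without untreated replicate 2. Bid (0.01) ranged from -0.03 to 0.08 without 1 library, and was -0.01 by library size only, -0.02 with upper quartile scaling, and -0.02 and -0.01 in the blocked fits without pair 2 and pair 4. The cause was not tested. By CPM without gene length, the BH3-only share was 40% untreated and 38.7% after CpG, the effector share 12.4% and 14.4%, and the prosurvival share 46.8% after CpG. Counts of 69 to 154 per library limit Bbc3 and Bcl2, counts of 117 to 245 limit Bcl2l1, and counts of 8 to 61 limit Fasl.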
